A study of Homo sapiens with 24 samples.

Results

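The aryl hydrocarbon receptor AHR, its dimer partners ARNT and ARNT2, its repressor AHRR and the cytosolic chaperones PTGES3, HSP90AA1 and HSP90AB1 were chosen by gene symbol. All 7 symbols are among the 23106 in the count files, and all 7 passed the filter on low counts that left 11735 genes for testing. RNA was sequenced from RCC4+VHL cells, a human renal carcinoma line that lacks functional VHL and in which VHL was restored by stable transfection of a plasmid, so that the von Hippel-Lindau protein again marks HIF-α for destruction when oxygen is present. The 24 libraries form 4 groups of 6. Normoxia + DMSO (21% oxygen, vehicle) was the control, normoxia + ITE received 100 nM ITE, an indole ligand of AHR, for 6 h, hypoxia + DMSO was held at 0.5% oxygen with vehicle for 6 h, and hypoxia + ITE received both for 6 h. All 4 groups carry the VHL plasmid and were kept in medium without phenol red and with charcoal-stripped serum, which lowers background ligands, and no group shows the parental cells. RCC4+VHL is a transfected derivative of a line from a single tumour.

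AHR is a transcription factor of the basic helix-loop-helix PAS family that waits in the cytosol, bound by a dimer of HSP90 molecules and the co-chaperone p23 (the product of PTGES3). Binding of a ligand sends it to the nucleus, where it leaves the chaperones, pairs with ARNT and occupies DNA that carries the core GCGTG. ARNT, also called HIF-1β, is the same partner that HIF-1α and HIF-2α need when oxygen falls, which is why its supply relative to the proteins that compete for it is of interest in these cells. AHRR lacks the ligand-binding domain, pairs with ARNT in place of AHR and is itself a known target gene of AHR.

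The promoter of AHRR is shown because AHRR is the only one of the 7 genes that is a textbook target of the receptor. That of AHR is shown for comparison, and those of the HSP90 paralogues because heat-shock factor HSF1 is known to drive them. Patterns searched on both strands were GCGTG (the AHR-ARNT core), ACGTG (the HIF-ARNT core) and the paired heat-shock units GAANNTTC and TTCNNGAA. The heat-shock pairs can overlap each other, and so can ACGTG and its reverse. Capitals mark every match. Sequences are the bases before the transcription start in the RefSeq promoter table (GRCh38.p14), and each was matched letter for letter to GRCh37 for its position. They were chr5:321579-321828 (plus strand) for AHRR, chr7:17338026-17338275 (plus) for AHR, chr14:102553382-102553631 (minus) for HSP90AA1 and chr6:44215430-44215602 (plus) for HSP90AB1, the last shortened to the stretch outside annotated exons.
AHRR: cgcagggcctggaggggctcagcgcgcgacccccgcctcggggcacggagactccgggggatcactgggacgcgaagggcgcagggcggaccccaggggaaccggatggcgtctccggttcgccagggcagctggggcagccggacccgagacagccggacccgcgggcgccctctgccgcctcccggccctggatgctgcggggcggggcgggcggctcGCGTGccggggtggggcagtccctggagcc
AHR: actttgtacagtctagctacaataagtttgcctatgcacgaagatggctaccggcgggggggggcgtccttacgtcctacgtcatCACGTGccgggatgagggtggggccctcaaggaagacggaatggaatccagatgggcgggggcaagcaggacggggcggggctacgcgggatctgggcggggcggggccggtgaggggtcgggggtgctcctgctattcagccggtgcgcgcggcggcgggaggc
HSP90AA1: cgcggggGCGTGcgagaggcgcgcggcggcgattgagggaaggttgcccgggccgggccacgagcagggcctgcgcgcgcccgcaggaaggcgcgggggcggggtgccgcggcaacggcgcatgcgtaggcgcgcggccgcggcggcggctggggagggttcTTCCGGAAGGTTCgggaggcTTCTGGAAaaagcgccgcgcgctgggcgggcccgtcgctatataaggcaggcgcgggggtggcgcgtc
HSP90AB1: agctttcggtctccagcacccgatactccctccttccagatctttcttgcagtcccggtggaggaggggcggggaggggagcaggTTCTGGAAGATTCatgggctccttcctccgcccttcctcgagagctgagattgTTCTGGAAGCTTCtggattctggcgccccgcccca
The AHR start of this table lies inside the annotated gene, whose first base is further upstream. The AHRR sequence holds 1 GCGTG, 30 to 26 bases before the start, and a second AHRR start in the table holds 2 more in its 250 bases. The AHR sequence holds no GCGTG but the palindrome that gives 2 overlapping ACGTG matches. The HSP90AA1 sequence holds 1 GCGTG, 243 to 239 bases before the start, and 3 heat-shock pairs between 88 and 61 bases before it. The HSP90AB1 sequence holds 4 between 165 and 100 bases before it, and a GCGTG lies 28 to 24 bases before that start, outside the stretch shown. The other HSP90AB1 starts in the table each hold 1 GCGTG, and together 3 ACGTG, but 0 heat-shock pairs. The other HSP90AA1 start holds 1 GCGTG and 0 heat-shock pairs. For each HSP90 gene, the start shown is thus the only one in the table with heat-shock pairs. Counted over all starts of the 6 genes in the table, 8 of 10 windows and 4 of 6 genes hold GCGTG. Of 35116 promoters in the table, 32.2% hold GCGTG, 18.5% hold ACGTG and 11.6% hold either heat-shock pair in the same 250 bases, so a GCGTG match is common. A match describes letters, not binding. The table has 6 of the 7 genes.

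Total counts per library ran from 770094 to 93851342 with a median of 7981993, and expression is given as CPM, counts per 1000000 counts of tested genes after TMM scaling. A count of 3, the limit that a count of 0 allows, was worth between 0.029 and 4.12 CPM, a floor that covers counting error only. In 3 libraries, GC content and gene length accounted for over 20% of the variance of the genes' deviations. They were hypoxia + DMSO replicate 1 (22.1%), hypoxia + ITE replicate 3 (21.5%) and hypoxia + ITE replicate 6 (44.8%), against 0.2% to 9.8% in the other 21. These 3 libraries stood apart in several of the 7 genes, so some values are also given without them. Where that is not stated, values include these 3 libraries. The 8 markers of a renal epithelial line summed to between 3852 and 4243 CPM in normoxia + DMSO, 3674 and 4139 in normoxia + ITE, 4192 and 5167 in hypoxia + DMSO, and 4235 and 7571 in hypoxia + ITE. The highest sums were under hypoxia, and their part in the results was not tested. The markers of endothelial cells, hepatocytes and neurons summed to at most 3.46, 0.22 and 2.26 CPM in any library. The 4 immune markers summed to at most 31.4 CPM, of which CD68, a lysosomal protein gene that other cells also express, made up nearly all (mean 11.9 CPM). VHL was read in every library (147 to 701 CPM), which cannot be set against untransfected cells here. The 3 highest VHL values, 701, 293 and 236 CPM, were those of the libraries that stood apart, and the next was 219 CPM. The study calls the replicates independent, but nothing says that they came from separate cultures, so p-values measure the spread between these samples, which may be technical. In bulk RNA, fewer cells of a kind and less RNA per cell cannot be told apart.

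Per kilobase of transcript, the 7 genes spanned a wide range of levels, with the chaperones at the top, the receptor and ARNT in the middle and ARNT2 and AHRR at the bottom. With all annotated exons as the length, the mean over the 24 libraries was 636 CPM per kb for HSP90AB1, the constitutive HSP90, and 607 for HSP90AA1, the stress-inducible one. PTGES3 followed at 128 CPM per kb, ARNT at 5.15 and AHR at 4.32. ARNT2 and AHRR were at 0.16 and 0.12 CPM per kb. For comparison, HIF1A and EPAS1, which encode the HIF-1α and HIF-2α that compete for ARNT, were at 45.7 and 17.6 CPM per kb, both above ARNT in 24 of 24 libraries. These are RNA levels, not protein, and the study does not take HIF-α or AHR mRNA as a measure of activity. By immunoblot of hypoxic cells, it reports AHR protein in RCC4+VHL as high relative to HIF-α among the lines compared. ARNT was above AHR in 20 of 24 libraries with this length and in 23 of 24 with the length of the MANE Select transcript. Neighbouring HSP90AB1 and HSP90AA1 changed places with the length used. HSP90AB1 was the higher in 20 of 24 libraries by all exons, and HSP90AA1 in 23 of 24 by the MANE Select transcript. ARNT2 and AHRR were not separable, since ARNT2 was higher in 14 of 24 libraries by all exons and AHRR in 13 of 24 by the MANE Select transcript.

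**Figure D1:**
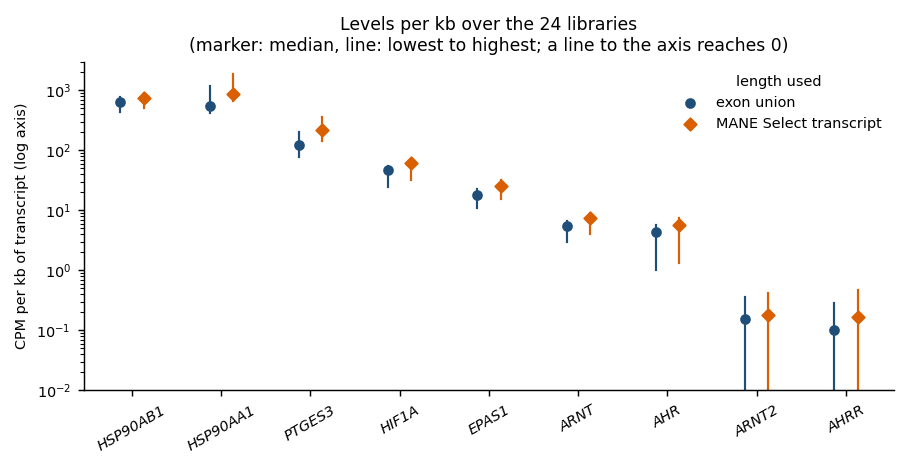
Level of each gene in CPM per kb of transcript on a log axis, with the median over 24 libraries as a marker and a line from the lowest to the highest library, for 2 choices of transcript length; HIF1A and EPAS1 are added for comparison. By all exons the HSP90 genes lie at 419 CPM per kb or above in every library, and ARNT2 and AHRR reach 0 in 1 library each, drawn as a line down to the axis.

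None of the 7 genes passed an adjusted p-value under 0.05 in any of the 6 comparisons by edgeR's quasi-likelihood test. In ITE in normoxia (normoxia + ITE against normoxia + DMSO) 0 of 7 were called against 0.0511% of all genes tested, in hypoxia with DMSO (hypoxia + DMSO against normoxia + DMSO) 0 of 7 against 1.3%, and in hypoxia with ITE (hypoxia + ITE against normoxia + ITE) 0 of 7 against 2.35%. In ITE in hypoxia (hypoxia + ITE against hypoxia + DMSO) it was 0 of 7 against 0.0597%, and in both stimuli against neither (hypoxia + ITE against normoxia + DMSO) 0 of 7 against 2.32%. For the interaction, the difference between the effects of ITE at the 2 oxygen levels, 0 of 7 were called against 0%. With so few genes called in the whole table, 0 of 7 is near the background. At an unadjusted p under 0.05 there was 1 (ARNT2) in ITE in normoxia, 1 (AHR) in ITE in hypoxia and 1 (HSP90AA1) in both stimuli against neither, and 0 in the other 3. Over all genes tested, 1.46% passed that looser limit in ITE in normoxia, 9.47% in hypoxia with DMSO, 20.1% in hypoxia with ITE, 9.56% in ITE in hypoxia, 19.3% in both stimuli against neither and 3.19% in the interaction. DESeq2 also called 0 of 7 in each comparison, with the same numbers at an unadjusted p under 0.05. By direction, calls over all genes were 0.0511% higher and 0% lower in ITE in normoxia, 1.16% higher and 0.136% lower in hypoxia with DMSO, 1.89% and 0.46% in hypoxia with ITE, 0.0597% and 0% in ITE in hypoxia, and 1.79% and 0.528% in both stimuli against neither. The groups overlapped for 7 of 7 members in each of the 5 comparisons between groups. Over all genes, groups without overlap were also rare. They were 0.477% higher and 0.213% lower in ITE in normoxia, 1.8% and 0.937% in hypoxia with DMSO, 1.21% and 0.92% in hypoxia with ITE, 0.153% and 0.128% in ITE in hypoxia, and 1.26% and 0.801% in both stimuli against neither.

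**Figure D2:**
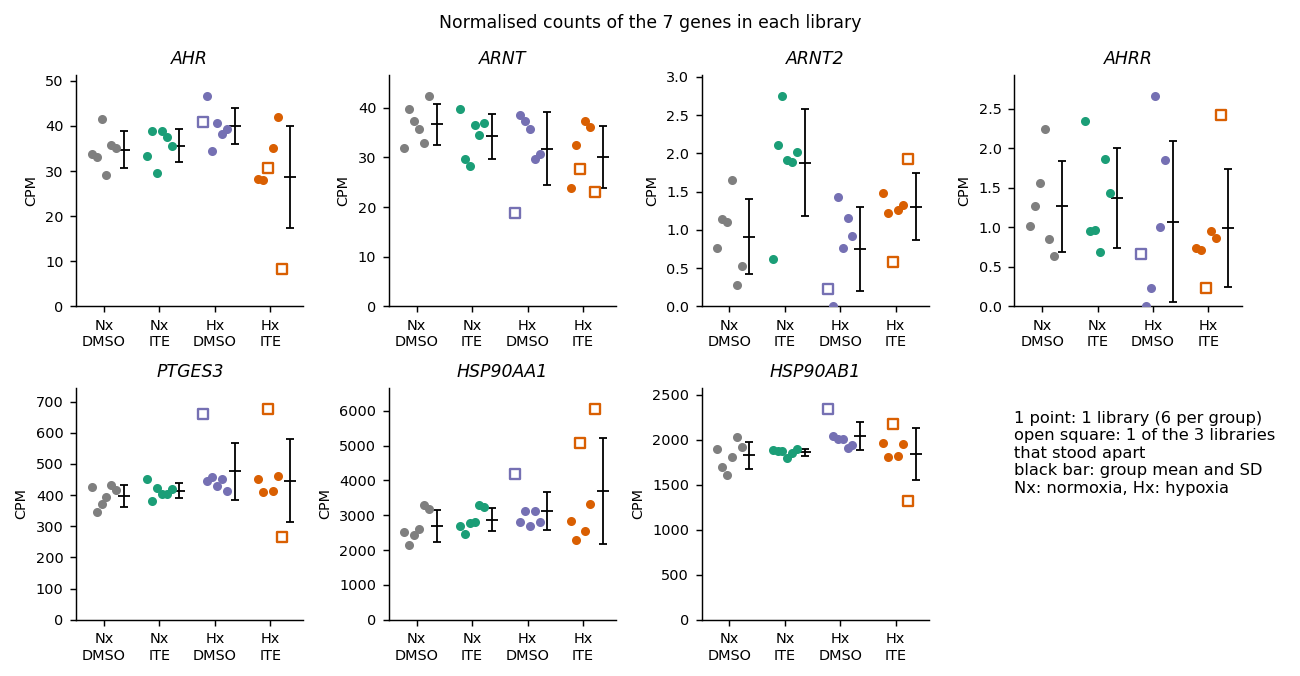
Normalised counts (CPM, linear axes from 0) of the 7 genes in each of 24 libraries by group, with the group mean and SD as a black bar and the 3 libraries that stood apart as open squares. The groups overlap for every gene, and the open squares hold the lowest AHR value (8.21 CPM) and the highest HSP90AA1 value (6057 CPM).

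AHR, the receptor, lies at chr7:16955983-17385776 on the plus strand (GRCh37, GENCODE annotation). In that annotation, 492 exon bases of AHR overlap a non-coding RNA on the other strand. AHR also shares 2373 exon bases with a protein-coding model on the same strand that the files do not list. It was read at 29.1 to 41.5 CPM (median 34.5) in normoxia + DMSO and at 29.5 to 38.8 CPM (median 36.5) in normoxia + ITE. The ranges of these groups overlapped almost entirely. In hypoxia + DMSO it ran from 34.4 to 46.7 CPM (median 40.1), and in hypoxia + ITE from 8.21 to 42.0 CPM (median 29.5). Replicate 6 of hypoxia + ITE, at 34 counts, was the lowest of all libraries, and the next lowest of the 24 was at 28.1 CPM. Treatment with ITE in normoxia gave a log2 fold change of 0.03 (SE 0.19, 95% interval -0.36 to 0.43). In hypoxia, AHR was 28.7 ± 11.3 CPM with ITE and 40.0 ± 4.04 with DMSO (SD, n = 6 each). That log2 difference was -0.43 (SE 0.20, interval -0.85 to -0.02, unadjusted p = 0.0405, adjusted p = 0.508), lower in 5 of 6 pairs of the same number. Without the 3 libraries it was -0.19 (SE 0.13, adjusted p = 1), and leaving out replicate 6 of hypoxia + ITE alone gave -0.24. For hypoxia with DMSO the log2 fold change was 0.18 (SE 0.20, interval -0.22 to 0.59), higher in 5 of 6 pairs.

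ARNT, the shared partner of AHR and HIF-α, lies at chr1:150782189-150849184 on the minus strand. It was at 31.8 to 42.4 CPM (median 36.6) in normoxia + DMSO and at 28.2 to 39.8 CPM (median 35.5) in normoxia + ITE. Under hypoxia the range was 18.9 to 38.5 CPM (median 33.2) with DMSO and 22.9 to 37.4 CPM (median 30.1) with ITE. The lowest value, 18.9, was again one of the libraries that stood apart, hypoxia + DMSO replicate 1. Log2 fold changes were -0.10 (SE 0.15, interval -0.40 to 0.21) for ITE in normoxia and -0.23 (SE 0.15, interval -0.54 to 0.08) for hypoxia with DMSO, the latter lower in 5 of 6 pairs. For hypoxia with ITE the value was -0.16 (SE 0.15), and for ITE in hypoxia -0.03 (SE 0.15). Without the 3 libraries, these values were -0.11, -0.14, -0.02 and 0.02 in the same order.

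ARNT2, the paralogue of ARNT known mainly from the nervous system and kidney, lies at chr15:80696692-80890274 on the plus strand and was near the detection limit, with 651 counts over all libraries. In normoxia + DMSO it ran from 0.28 to 1.66 CPM (median 0.93), which is 2 to 112 counts. In normoxia + ITE it ran from 0.62 to 2.75 CPM (median 1.96). Replicates 2 to 6 of normoxia + ITE all lay above the highest normoxia + DMSO library, and replicate 1 lay below the DMSO median. Its means were 1.88 ± 0.70 CPM with ITE and 0.91 ± 0.49 with DMSO (SD, n = 6 each). That is a log2 fold change of 0.90 (SE 0.37, interval 0.15 to 1.66), the largest of the 7 genes in this comparison, with an unadjusted p of 0.0211 and an adjusted p of 1, higher in 5 of 6 pairs. It did not pass the threshold and is given as a value. In hypoxia the medians were 0.84 CPM with DMSO, where 1 library of 6 had no count (hypoxia + DMSO replicate 2, in which that allows up to 4.12 CPM), and 1.29 CPM with ITE. ITE in hypoxia gave a log2 fold change of 0.36 (SE 0.42, interval -0.51 to 1.22), and the interaction of ITE with oxygen -0.55 (SE 0.56, interval -1.69 to 0.60).

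AHRR lies at chr5:321829-438406 on the plus strand and shares 5561 exon bases with the readthrough gene PDCD6-AHRR, which the files do not list, so reads of the readthrough could have been counted here or not at all. It was as scarce as ARNT2, with 652 counts over all libraries. Normoxia + DMSO ran from 0.64 to 2.25 CPM (median 1.14) and normoxia + ITE from 0.68 to 2.34 CPM (median 1.2). The ranges overlapped almost entirely. With ITE in normoxia the log2 fold change was 0.10 (SE 0.44, interval -0.79 to 0.99, adjusted p = 1), higher in 3 of 6 pairs. Changes of AHRR by ITE within that interval are compatible with these counts, and the smallest change that could be called was not worked out. In hypoxia, medians were 0.84 CPM with DMSO, again with no count in replicate 2, and 0.81 CPM with ITE, and the log2 fold change for ITE in hypoxia was -0.43 (SE 0.51, interval -1.48 to 0.63).

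Other known targets of the receptor were measured in the same libraries. Of 10 textbook AHR target genes, 7 were tested and 3 were called higher in ITE in normoxia. The median log2 fold change was 0.27 over the 7, against 0 over all genes tested. CYP1B1, a cytochrome P450, rose from 56.7 ± 7.75 to 322 ± 53.0 CPM (SD, n = 6 each, log2 fold change 2.51, SE 0.20, adjusted p = 7.64e-09). TIPARP, a feedback inhibitor that modifies AHR, rose from 48.3 to 123 CPM (1.35, SE 0.17, adjusted p = 4.77e-05), and SLC7A5, an amino acid transporter, rose from 566 to 1309 CPM (1.21, SE 0.11, adjusted p = 1.56e-07). In each, all 6 pairs were higher and the groups did not overlap, as was so upward for 0.477% of genes tested. CYP1A1, CYP1A2 and ALDH3A1 were at or near 0, CYP1A1 with no count in 18 of 24 libraries and at most 3 in the others. Of 5 AHR targets also assayed by RT-qPCR, 2 were called higher in ITE in normoxia, CYP1B1 and ALDH1A3 (11.9 to 30.2 CPM, 1.33, SE 0.15, adjusted p = 3.54e-06). All 5 were higher there in 6 of 6 pairs with an unadjusted p under 0.05, and their median log2 fold change was 1.103. CYP27A1 (adjusted p = 0.173), ASB2 (adjusted p = 0.297) and BMF did not pass the adjusted threshold in that comparison. In ITE in hypoxia 4 of the 5 were called, of which ASB2 (1.31, adjusted p = 0.0319) and CYP27A1 (1.40, adjusted p = 0.0434) lost the call in 9 and 8 of 12 fits that left out 1 library (adjusted p up to 0.148 and 0.277), and ASB2 also without the 3 libraries (adjusted p = 0.304), where CYP27A1 kept it (adjusted p = 0.00346). In ITE in hypoxia, 2 of the 7 textbook genes tested were called higher, CYP1B1 (2.35, SE 0.21, adjusted p = 6.18e-08) and SLC7A5 (0.88, SE 0.11, adjusted p = 0.000122). TIPARP was at 88.1 CPM against 55.2 there (0.67, SE 0.18, adjusted p = 0.494), and its interaction did not pass (-0.68, adjusted p = 0.915). Its lowest hypoxia + ITE library, replicate 6 (40.3 CPM), is one of the 3 that stood apart. The other hypoxia + ITE libraries ran from 74.1 to 149 CPM, all above the hypoxia + DMSO range of 45.1 to 66.0 CPM. A value without the 3 libraries is not given for TIPARP in this comparison.

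**Figure D3:**
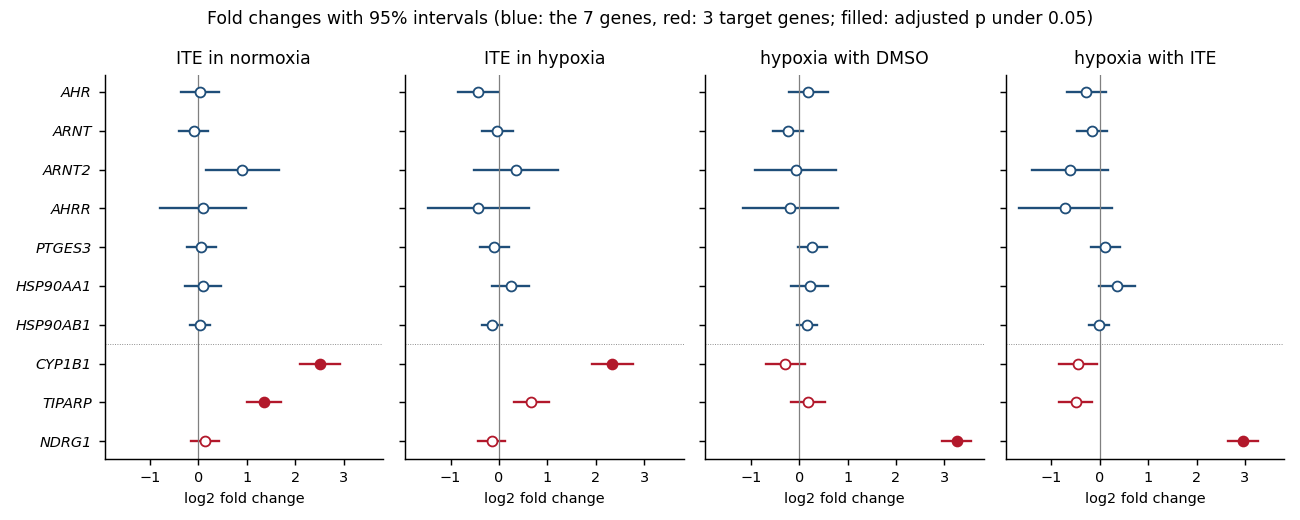
Log2 fold changes with 95% intervals in 4 comparisons for the 7 genes (blue) and for CYP1B1, TIPARP and NDRG1 (red); filled points passed an adjusted p of 0.05. None of the blue points is filled, while CYP1B1 is at 2.51 with ITE in normoxia and NDRG1 at 3.25 under hypoxia with DMSO.

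Targets of HIF were read in the same libraries. Of 5 HIF targets also assayed by RT-qPCR, 4 were called higher in hypoxia with DMSO. They were NDRG1 (33.2 to 316 CPM, 3.25, SE 0.15, adjusted p = 5.68e-15), PFKFB4 (3.41, SE 0.19), INSIG2 (1.95, SE 0.16) and ANKRD37 (2.81, SE 0.35). In hypoxia with ITE 4 of the 5 were called higher as well, and in both stimuli against neither all 5. In those comparisons the median log2 fold change over the receptor and chaperone genes was 0.16, -0.16 and 0.01 respectively, against -0.003, 0.02 and 0.02 over all genes tested.

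PTGES3, the gene of p23, which stabilises the closed HSP90 dimer, lies at chr12:57057125-57082192 on the minus strand. Its counts were 325 or more in each library. It was at 345 to 432 CPM (median 405) in normoxia + DMSO and at 380 to 453 CPM (median 411) in normoxia + ITE. In hypoxia it ran from 413 to 661 CPM (median 449) with DMSO and from 267 to 677 CPM (median 431) with ITE. The extremes 661, 677 and 267 belonged to the 3 libraries that stood apart. Hypoxia with DMSO gave a log2 fold change of 0.27 (SE 0.15, interval -0.04 to 0.57, adjusted p = 0.594), higher in 5 of 6 pairs. Without the 3 libraries it was 0.14 (SE 0.07, unadjusted p = 0.0409, adjusted p = 0.295). ITE in normoxia gave 0.06 (SE 0.15, interval -0.24 to 0.36).

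HSP90AA1, the stress-inducible HSP90α, lies at chr14:102547079-102606036 on the minus strand, and 197 bases of its exons overlap exons of WDR20 on the opposite strand. Whether counting used the strand is not given in the sources used here, so reads there cannot be assigned with certainty. It ran from 2134 to 3287 CPM (median 2567) in normoxia + DMSO and from 2474 to 3283 CPM (median 2794) in normoxia + ITE. In hypoxia + DMSO it ran from 2697 to 4193 CPM (median 2967), and in hypoxia + ITE from 2291 to 6057 CPM (median 3086). The 3 highest values of all, 4193, 5076 and 6057 CPM, were those of the libraries that stood apart. In both stimuli against neither, HSP90AA1 was 3691 ± 1525 against 2694 ± 448 CPM (SD, n = 6 each), a log2 fold change of 0.45 (SE 0.18, interval 0.08 to 0.83, unadjusted p = 0.0202, adjusted p = 0.173), higher in 5 of 6 pairs. Without the 3 libraries it was 0.02 (SE 0.11, adjusted p = 0.974), and without hypoxia + ITE replicate 6 alone it was 0.25. Hypoxia with ITE gave 0.36 (SE 0.18, adjusted p = 0.273) with all libraries and -0.07 (SE 0.11) without the 3.

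HSP90AB1, the constitutive HSP90β, lies at chr6:44213903-44221625 on the plus strand and varied little in normoxia. In normoxia + ITE its 6 libraries fell between 1796 and 1903 CPM (mean 1865 ± 38.2, SD), and in normoxia + DMSO between 1614 and 2030 CPM (median 1856). Hypoxia + DMSO ran from 1911 to 2345 CPM (median 2008) and hypoxia + ITE from 1325 to 2173 CPM (median 1887), with 2345, 2173 and 1325 from the libraries that stood apart. The log2 fold change was 0.03 (SE 0.10, interval -0.18 to 0.24) for ITE in normoxia, 0.16 (SE 0.10, interval -0.05 to 0.37) for hypoxia with DMSO and 0.01 (SE 0.10, interval -0.20 to 0.22) for both stimuli. Of the copies and paralogues looked for, these files list HSP90AB4P with 18 counts in all and PTGES3L, a paralogue of PTGES3, with 300. No copy of HSP90AA1 and no pseudogene of PTGES3 that was looked for is listed. The authors removed reads that did not map to 1 place, so reads shared with copies elsewhere in the genome are missing from the 3 chaperones.

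Ratios of 2 genes within a library do not depend on how libraries are scaled to each other, and 4 were compared in 4 comparisons with 0.5 added to each count, which weighs on a gene as scarce as ARNT2 (16 exact two-sided permutation tests of 6 against 6 libraries, smallest possible p 0.00216). None passed after Benjamini-Hochberg adjustment over the 16. AHR to ARNT, per kb, ran from 0.65 to 0.89 in normoxia + DMSO, 0.67 to 1.05 in normoxia + ITE, 0.74 to 1.73 in hypoxia + DMSO and 0.29 to 0.95 in hypoxia + ITE. In hypoxia with DMSO its log2 value was higher by 0.44 (from -0.40 ± 0.22 to 0.04 ± 0.41, SD, n = 6 each, exact permutation p = 0.0281, adjusted p = 0.185), and by 0.29 without the 3 libraries. In hypoxia with ITE it differed by -0.25 (exact permutation p = 0.509, adjusted p = 0.653), and in ITE in hypoxia by -0.56 (exact permutation p = 0.0606, adjusted p = 0.242), the latter -0.175 without the 3. The ratio of AHR to the sum of HIF1A and EPAS1 ran from 0.054 to 0.074 in normoxia + DMSO and from 0.065 to 0.099 in hypoxia + DMSO, a log2 difference of 0.33 (exact permutation p = 0.013, adjusted p = 0.185), higher in 5 of 6 pairs and 0.27 without the 3 libraries. In hypoxia with ITE that ratio differed by -0.13 (exact permutation and adjusted p both 0.779), and in ITE in hypoxia by -0.41 (exact permutation p = 0.0801, adjusted p = 0.256), the latter -0.197 without the 3. ARNT2 to ARNT reached 0.083 in the libraries with a count of ARNT2, and hypoxia + DMSO replicate 2, with none, has a value that rests on the added count. The ratio of ARNT2 to ARNT was higher by 1.18 on the log2 scale with ITE in normoxia (exact permutation p = 0.0346, adjusted p = 0.185). Its difference was 0.22 in hypoxia with DMSO and 0.71 in ITE in hypoxia, and with 2 added to each count in place of 0.5 these became 0.615 and 0.274 (adjusted p = 0.196 and 0.681 by the exact permutation test). HSP90AA1 to HSP90AB1 ran from 0.74 to 1.04 in the 21 libraries that did not stand apart, and was 1.36 in hypoxia + ITE replicate 3 and 2.67 in replicate 6. Its log2 difference in hypoxia with DMSO was 0.05 (exact permutation p = 0.578, adjusted p = 0.653).

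**Figure D4:**
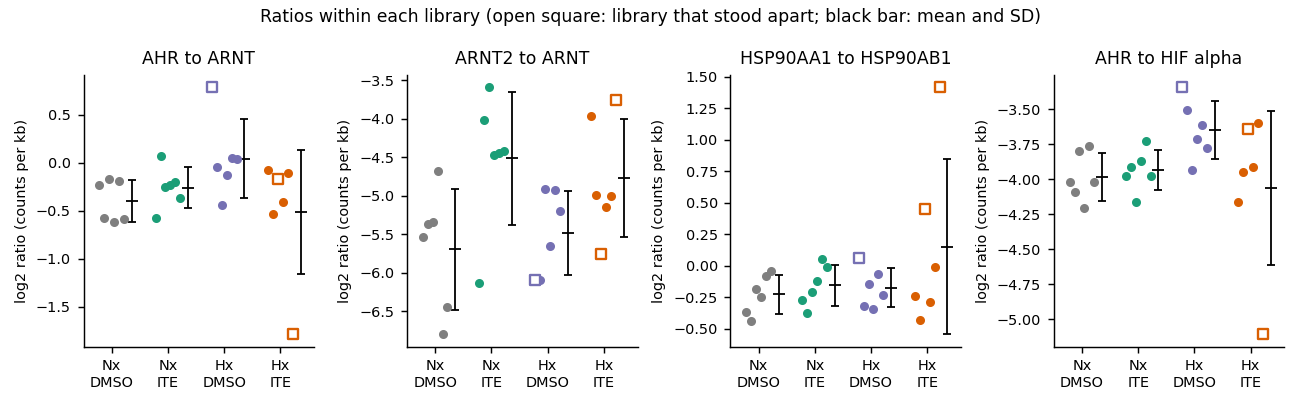
Log2 ratios of counts per kb within each of 24 libraries for 4 pairs, by group, with the mean and SD as a black bar and the 3 libraries that stood apart as open squares. AHR to ARNT lies lowest (-1.79) and HSP90AA1 to HSP90AB1 highest (1.42) in the same library, hypoxia + ITE replicate 6.

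Which genes tracked each other over the libraries is described by Spearman's rho over 24 libraries, with no test, since the points share groups, depth and base composition. PTGES3 and HSP90AB1 were each nearest to the other among 8998 genes with a mean of at least 10 CPM (rho 0.857). Over the 21 libraries rho was 0.787, still first for PTGES3 but the 4th highest for HSP90AB1. HSP90AA1 followed HSP90AB1 less closely (0.505, and 0.621 over the 21) and was most like EMP3 (0.874), HRAS (0.81) and RIOK1 (0.808). Over the 21 libraries these were 0.812, 0.716 and 0.749, and the highest rho of any gene with HSP90AA1 was 0.916. AHR was most like CEP85L (0.803), ZNF148 (0.762) and SGPP2 (0.725), of which SGPP2 was first over the 21 libraries (0.873). ARNT was most like MKL2 (0.83), CDKAL1 (0.815) and MTF1 (0.791). AHR and ARNT were weakly related (0.24, and 0.177 over the 21). After PTGES3, HSP90AB1 was nearest to HSPE1 (0.816) and HPRT1 (0.801), and PTGES3 to AP1S2 (0.794) and PFN2 (0.791). For ARNT2 the nearest were VPS26B (0.73), GPATCH2L (0.728) and CALD1 (0.71), and for AHRR EARS2 (0.732), LRCH4 (0.719) and SHPK (0.702), values that rest on few counts. Over the 21 libraries those of ARNT2 were 0.64, 0.642 and 0.626, where the highest of any gene was 0.753. Those of AHRR were 0.634, 0.613 and 0.66, where the highest was 0.69.

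**Figure D5:**
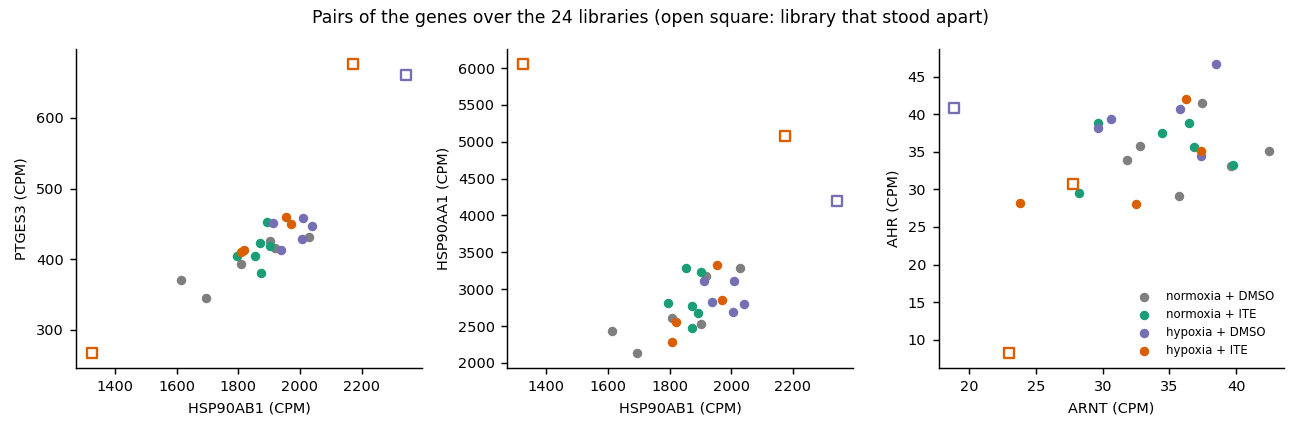
Normalised counts (CPM) of 3 pairs of the genes over the 24 libraries, coloured by group, with the 3 libraries that stood apart as open squares. PTGES3 tends to be high where HSP90AB1 is (rho 0.857), HSP90AA1 less so (0.505), and AHR against ARNT has a rho of 0.24.

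Other genes of the bHLH-PAS family, among them HIF-α subunits and clock factors, numbered 12, of which 7 were tested and 0 were called in any comparison. At an unadjusted p under 0.05 there were 3 in hypoxia with ITE and 1 in both stimuli against neither. HIF1A was at 255 ± 10.7 CPM in normoxia + DMSO and 228 ± 20.5 in hypoxia + DMSO (SD, n = 6 each), lower in 6 of 6 pairs but with a log2 fold change of -0.16 (SE 0.12, adjusted p = 0.726). EPAS1 differed by -0.03 (SE 0.15) there. In hypoxia with ITE, HIF1A differed by -0.36 (SE 0.12, adjusted p = 0.0958) and EPAS1 by -0.14 (SE 0.15). HIF3A, NPAS1, NPAS3, NPAS4 and SIM2 did not pass the filter, NPAS4 with no count in 24 of 24 libraries.

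Of 20 HSP90 partners and co-chaperones, 19 were tested. None was called in ITE in normoxia, where their median log2 fold change was 0.02 against 0 over all genes, nor in hypoxia with DMSO (0.04 against -0.003), ITE in hypoxia (0.02 against 0.02) or both stimuli against neither (0.11 against 0.02). At an unadjusted p under 0.05 there were 0, 2, 1 and 4 of the 19 in these comparisons, against 1.46%, 9.47%, 9.56% and 19.3% of all genes tested. HSPA8, the constitutive HSP70, and HSP90B1, the HSP90 of the endoplasmic reticulum, were the most abundant at 3157 and 1073 CPM, with log2 fold changes of 0.04 and 0.07 for ITE in normoxia and 0.13 and 0.16 for hypoxia with DMSO (SE 0.10 and 0.11). HSPA1A and HSPA1B, which are nearly identical in sequence, were at 0.64 and 2.42 CPM in files from which reads of more than 1 place were removed, so their levels are uncertain.

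Of 17 coregulators and turnover factors of AHR, all 17 were tested and TIPARP alone was called, in ITE in normoxia and in both stimuli against neither (0.85, SE 0.17, adjusted p = 0.0043). TRIM28 and DDB1, the most abundant at 362 and 308 CPM, had log2 fold changes of 0.05 (SE 0.11) and 0.002 (SE 0.10) under hypoxia with DMSO. Among the renal markers KRT19 was called in hypoxia with ITE (0.89, adjusted p = 0.0375) and lost its call without the 3 libraries (0.30, adjusted p = 0.151), and PAX2 was called in both stimuli against neither (0.75, adjusted p = 0.037). PAX2 kept its call without the 3 libraries (adjusted p = 0.0165) and lost it with total counts (0.59, adjusted p = 0.127), with the compared groups alone (adjusted p = 0.173), with offsets for GC content and length (adjusted p = 0.053) and in 6 of 12 fits that left out 1 library (adjusted p up to 0.094).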

How the data were processed

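RNA from 24 RCC4+VHL samples was sequenced as polyadenylated, paired-end, directional libraries. The deposited files hold raw counts per gene symbol: the authors trimmed reads with Trim Galore 0.3.3, aligned them to GRCh37 with HISAT2 (given as 2.05 in the submitters' notes), removed reads without a unique place with Picard 2.0.1 and counted with HTSeq 0.5.4p3 (intersection-strict). The strand setting is not given in the sources used here. Removing non-unique reads lowers genes with near-identical copies. Gene positions, transcript lengths and overlaps given here come from a GENCODE annotation on GRCh37. The study counted reads per UCSC-defined gene, so the gene models that were counted may differ from these. Groups came from the sample titles. Counts were tested with edgeR 4.0.16 (TMM, filterByExpr with a minimum count of 10, quasi-likelihood F test on 1 mean per group over 24 libraries, two-sided, Benjamini-Hochberg over 11735 genes, threshold 0.05), in R 4.3.3. Total counts of 770094 to 93851342 set the precision of scarce genes, and the biological coefficient of variation was 22%. Intervals are 95%, from the fold change and its standard error. Alternatives were DESeq2 1.42.0, limma 3.58.1 voom with quality weights, other scalings, no filter, the replicate block, compared groups alone, offsets for GC content and length (known for 90.8% of genes), counts summed with copies and leaving out each library. Leaving out the 3 libraries that stood apart and the MANE Select length were added after seeing the data. The fits were also run on simulated counts with no GC or length bias, no outlying libraries and no replicate effect. Those runs cannot show how the fits handle such features. The members and lists were chosen with earlier results of these data known. Named genes are the members, from each list and comparison up to 4 called genes of lowest p or, with none called, the 2 most abundant, the 3 genes most like each member, and the markers, and any other gene was named after its values were seen. For the HSP90 partners, the comparison hypoxia with ITE is not reported here.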

Additional observations from a re-analysis of the deposited data

Results flagged for a closer look

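Of 44 sets of 6 libraries checked, 7 had 1 library far from the rest by Dixon's criterion (gap over range above 0.625), where chance gives about 1 in 20. In hypoxia + DMSO, replicate 1 was the highest for HSP90AA1 (4193 CPM, next 3116), HSP90AB1 (2345 CPM, next 2041) and PTGES3 (661.3 CPM, next 458.3). In hypoxia + ITE, replicate 6 was the highest for AHRR (2.414 CPM from 10 counts, next 0.957) and the lowest for the log2 ratios AHR to ARNT (-1.789, next -0.5313) and AHR to HIF alpha (-5.106, next -4.164). Both are among the 3 libraries whose deviations followed GC content and gene length, and the part of this in these values was not tested. In normoxia + ITE, replicate 1, which did not stand apart, was the lowest for the log2 ratio ARNT2 to ARNT (-6.141, next -4.468), with 5 counts of ARNT2.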

How the results depend on the processing

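No member passed an adjusted p of 0.05 in 522 values under alternatives (lowest 0.102) or in 588 values without 1 library (lowest 0.0781). A value is a member in a comparison under a setting, so each fit gave several. Of these values, 25 and 27 changed sign. With the compared groups alone, 5 to 7 of the 7 genes passed the filter. HSP90AB1 in both stimuli against neither became -0.122 with total counts, -0.003 with groups alone and the replicate block, -0.035 with offsets and -0.041 with offsets and the block, and ARNT2 in hypoxia with DMSO 0.038 with offsets and the block. Quality weights gave -0.012 for AHR in ITE in normoxia, 0.057 for ARNT2 in hypoxia with DMSO, 0.032, -0.006 and 0.017 for ARNT, HSP90AA1 and HSP90AB1 in hypoxia with ITE, 0.085 and -0.039 for ARNT and HSP90AA1 in ITE in hypoxia, and -0.158 for the HSP90AA1 interaction. Without the 3 libraries, and then with the block too, ARNT2 in hypoxia with DMSO was 0.065 and 0.063, HSP90AA1 and HSP90AB1 in hypoxia with ITE -0.067 and -0.043, and 0.014 and 0.007, ARNT and HSP90AA1 in ITE in hypoxia 0.015 and 0.048, and -0.080 and -0.053, and the HSP90AA1 interaction -0.169 and -0.148. The ratio AHR to HIF alpha in hypoxia with ITE was 0.014 by medians and 0.031 without the 3, and HSP90AA1 to HSP90AB1 -0.087 in hypoxia with ITE and -0.020 in ITE in hypoxia without them. The cause was not tested.

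Without 1 library in turn, sign changes lay within these ranges: AHR in ITE in normoxia -0.014 to 0.093, AHRR there -0.076 to 0.332 and in hypoxia with DMSO -0.557 to 0.076, ARNT2 in hypoxia with DMSO -0.251 to 0.150, ARNT in ITE in hypoxia -0.141 to 0.049 and its interaction -0.043 to 0.150, the HSP90AA1 interaction -0.050 to 0.261, HSP90AB1 in ITE in normoxia -0.005 to 0.061, in both stimuli -0.040 to 0.085 and in hypoxia with ITE -0.065 to 0.058, PTGES3 in ITE in hypoxia -0.247 to 0.022 and in hypoxia with ITE -0.043 to 0.217. For ratios they were AHR to ARNT in hypoxia with ITE -0.340 to 0.002, AHR to HIF alpha there -0.218 to 0.083 and ARNT2 to ARNT in hypoxia with DMSO -0.004 to 0.421. AHR to ARNT in hypoxia with DMSO ranged from 0.291 to 0.537, and passed only without hypoxia + DMSO replicate 3 (adjusted p = 0.0346, exact permutation test).

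Over all genes, calls under alternatives that kept every library or left out the 3 ran from 5 to 255 in ITE in normoxia, 124 to 840 in hypoxia with DMSO, 55 to 683 in hypoxia with ITE, 1 to 16 in ITE in hypoxia and 58 to 721 in both stimuli. Without 1 library in turn they ran from 4 to 8, 112 to 156, 159 to 811, 4 to 8 and 169 to 738 in the same order. In hypoxia with ITE the 811 came without hypoxia + ITE replicate 5 and the 159 without normoxia + ITE replicate 4, in both stimuli the 738 without hypoxia + ITE replicate 5 and the 169 without normoxia + DMSO replicate 3, and leaving out hypoxia + ITE replicate 1 or 4 also raised both counts by over 1.5 times. Leaving out normoxia + ITE replicate 2, 3, 5 or 6 lowered the count in hypoxia with ITE by over 1.5 times. In ITE in hypoxia it was 4, against 7 with every library, without hypoxia + DMSO replicate 2, 3, 4 or 6 or hypoxia + ITE replicate 1. Same-numbered samples were compared by the correlation of their deviations from the group mean, and the main fits did not use this pairing. The mean correlation was highest in ITE in normoxia (0.309, lowest -0.021). There 5 of 6 pairs were above 0.1, and 5 samples correlated best with their own number. It was lowest in ITE in hypoxia (0.013), with 2 of 6 pairs and 0 samples. For ITE in normoxia with the compared groups alone, 30 genes were called without the replicate block and 255 with it, and 0 members in both. With the replicate block over all libraries, 0 members were called in each comparison, and 13, 174, 261, 8, 264 and 0 genes in all. ARNT2 and AHRR had 0 to 113 and 0 to 159 counts in a library.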
